A study of Homo sapiens with 9 samples.

Results

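The genes of the MHC class I antigen presentation pathway were followed after depletion of RPL6, a protein of the large ribosomal subunit, in MHCC97H, a highly metastatic line of human hepatocellular carcinoma (HCC). The genes are HLA-B, HLA-C, HLA-E, HLA-F, B2M, TAP1, TAP2 and TAPBP, chosen by symbol among protein-coding genes with earlier results of these data known. They are 8 of the 60683 genes measured, of which 19970 are protein-coding. Poly-A RNA was sequenced from 3 groups of 3 libraries, 9 in all. Cells carried the hairpin shRPL6-1, the hairpin shRPL6-2 or a control hairpin (shCont, listed as WT). The RPL6 hairpins were delivered by lentivirus, and the sources used here give no clone or culture for a library. Replicates may thus be technical, and p-values cover no more than library-to-library spread.

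MHC class I molecules display short peptides from inside the cell to cytotoxic T cells and natural killer cells. A polymorphic heavy chain pairs with the invariant light chain beta-2-microglobulin (B2M). The proteasome cuts the peptides, the TAP1-TAP2 transporter carries them into the endoplasmic reticulum, and tapasin (TAPBP) holds the empty heavy chain next to the transporter until a peptide binds. Interferons raise the transcription of most of these genes, acting through STAT and IRF factors and the coactivator NLRC5, and tumor cells often carry less of the complex.

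HLA-B was the 1 class I gene that changed with both hairpins, where it was about 2-fold higher than in shCont. In bulk RNA, more cells that express a gene and more of its RNA per cell cannot be told apart. HLA-C, HLA-E, HLA-F, B2M, TAP2 and TAPBP did not pass the test with either hairpin, and TAP1 had no count in any library. The HLA-B call depended on the processing, being lost with both hairpins when the GC content of transcripts was corrected for.

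The regulatory sequences of 2 heavy chain genes and of B2M are given here because the class I promoters share elements that other genes of the pathway hold in part. The 300 bases around each start site come from RefSeq (GRCh38.p14), which holds a promoter for 7 of the 8 genes and none for HLA-E. They are the reference allele, not the alleles of MHCC97H. Capitals mark 5 motifs searched on both strands. These are GAAANNGAA and GAANNGAAA (forms of the interferon-stimulated response element), GGATTCNCC (enhancer A, bound by NF-kB), TGACG (X2 box core) and CCAATCA (Y box), and overlapping matches run together.
HLA-B, chr6:31357130-31357429, minus strand: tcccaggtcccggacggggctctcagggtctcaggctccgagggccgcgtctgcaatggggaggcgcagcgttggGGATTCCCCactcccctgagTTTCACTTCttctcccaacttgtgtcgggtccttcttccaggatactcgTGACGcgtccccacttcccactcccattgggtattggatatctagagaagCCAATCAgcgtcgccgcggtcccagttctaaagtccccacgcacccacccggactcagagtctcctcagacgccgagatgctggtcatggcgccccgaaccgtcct
HLA-C, chr6:31272043-31272342, minus strand: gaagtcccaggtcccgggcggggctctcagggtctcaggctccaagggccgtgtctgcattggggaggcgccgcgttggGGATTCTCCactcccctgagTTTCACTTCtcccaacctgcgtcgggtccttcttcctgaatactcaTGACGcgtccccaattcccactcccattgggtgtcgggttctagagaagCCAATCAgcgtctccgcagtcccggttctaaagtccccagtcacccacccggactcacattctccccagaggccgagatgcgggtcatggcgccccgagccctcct
B2M, chr15:44711267-44711566, plus strand: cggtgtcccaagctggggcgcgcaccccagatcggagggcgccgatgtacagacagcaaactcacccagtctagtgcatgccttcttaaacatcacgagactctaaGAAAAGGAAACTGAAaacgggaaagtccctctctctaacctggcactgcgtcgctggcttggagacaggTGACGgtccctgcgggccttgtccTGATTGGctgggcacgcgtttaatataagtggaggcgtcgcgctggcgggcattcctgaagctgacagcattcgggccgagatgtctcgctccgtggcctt

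In HLA-B, enhancer A began 175 bases before the start site, the interferon element (GAANNGAAA) 155, the X2 core 106 and the Y box 56. HLA-C held the same 4 motifs, beginning 171, 151, 105 and 56 bases before its start site. HLA-F held GAAANNGAA, 155 bases before the start site, and a Y box, and neither enhancer A nor the X2 core in these letters. B2M held overlapping GAAANNGAA motifs 144 and 138 bases before the start site, an X2 core and a Y box on the other strand. TAP2, TAPBP and the upstream of the 2 TAP1 start sites held GAAANNGAA and no Y box. Enhancer A was found in 0.834% of the 35116 RefSeq promoters, the Y box in 6.95%, GAAANNGAA in 8.11%, GAANNGAAA in 7.66% and the X2 core in 24.6%. A match is a description of letters in this window. HLA-B and HLA-C thus hold the same motifs.

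The hairpins' antisense strands are shown with the seed, bases 2 to 8, in capitals, and without their overhanging T bases, so that matches in the class I transcripts can be counted.
shRPL6-1: uUUGCGAAguuuaaccacc
shRPL6-2: uAAUAAGCcacuagccagc

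The sense strand of shRPL6-1 occurs in 7 of 8 coding RPL6 transcripts of GENCODE 29 and that of shRPL6-2 in 3 of 8, and neither occurs in the longest coding transcript of a class I gene. The seed match of shRPL6-1 occurs once in TAP2, and that of shRPL6-2 once in HLA-F and once in TAP1. HLA-B, HLA-C, HLA-E, B2M and TAPBP hold neither. Over all protein-coding genes the seed matches occur in 4.20% for shRPL6-1 and 15.9% for shRPL6-2 (19684 genes, longest coding transcript of each).

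RPL6 had 217, 189 and 233 counts with shRPL6-1 and 177, 143 and 285 with shRPL6-2, against 7501, 8584 and 7095 in shCont. Library totals ran between 13638468 and 16149480 counts. Of 8 hepatocyte markers, 7 stayed under 1 CPM (counts scaled to the library total by TMM) in every library, and among them ALB, which encodes albumin, had no count. HNF4A, a transcription factor of hepatocytes, was present at 4.70 to 11.3 CPM over the 9 libraries. Of 8 leukocyte markers 6 stayed under 1 CPM, with a summed level of 1.70 to 3.82 CPM with shRPL6-1, 1.42 to 3.59 with shRPL6-2 and 2.66 to 4.58 in shCont. CSF1R (0.90 to 3.17 CPM) and CD14 (0.300 to 1.19 CPM), markers of myeloid cells, reached 1 CPM in some libraries, whereas PTPRC, the general leukocyte marker, reached at most 0.270 CPM and CD3E, of T cells, had no count. Fibroblast and endothelial markers summed to 91.8 to 93.9 CPM with shRPL6-1, 82.3 to 91.8 with shRPL6-2 and 108 to 147 in shCont. Most of this was COL1A1 (means 59.8, 62.2 and 79.6 CPM in that order) and CDH5, an endothelial cadherin (26.4, 18.3 and 37.2). Of these 7 markers, COL1A2, DCN and PECAM1 stayed under 1 CPM. Of the 4 tested, CDH5 was lower with shRPL6-2 (log2 −1.03, edgeR adjusted p = 0.00748), as 14.6% of all genes were. It had −0.49 with shRPL6-1 (edgeR adjusted p = 0.130). COL1A1, PDGFRB and VWF did not pass by edgeR. COL1A1 had −0.41 and −0.36 (edgeR adjusted p = 0.104 and 0.0986), and DESeq2 called it lower with shRPL6-1. The part of these markers in the class I values was not tested. The libraries also differed in GC content. Set against transcript GC over all genes, the log2 deviation of each library had a Spearman rho of 0.267, −0.108 and −0.0195 with shRPL6-1, 0.331, 0.580 and 0.107 with shRPL6-2, and −0.533, −0.515 and 0.243 in shCont, where replicate 3 stood apart. No pair of libraries in a group agreed within sampling noise.

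How far each gene could be measured was limited by its place in the genome. Of the class I genes, 7 lie within the MHC on chromosome 6, between HLA-F and TAPBP (29722775 to 33314387, build GRCh38), and B2M lies on chromosome 15. Of 148 protein-coding genes in that stretch, 79 (53.4%) had no count in any of the 9 libraries, against 18.4% of 900 other protein-coding genes of chromosome 6 and 16.2% of 19822 elsewhere in the table. Of those 79, 48 overlap another protein-coding locus and 31 overlap none. Genes that most cells transcribe were among them. TUBB, CSNK2B, CLIC1, LSM2, MRPS18B, PPP1R10 and DHX16 had no count, and DDX39B and NELFE had 3 counts each over all libraries (these 9 were picked after their values were seen). Counts in this stretch may therefore be incomplete for the class I genes too. Why they are missing was not tested.

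**Figure D1:**
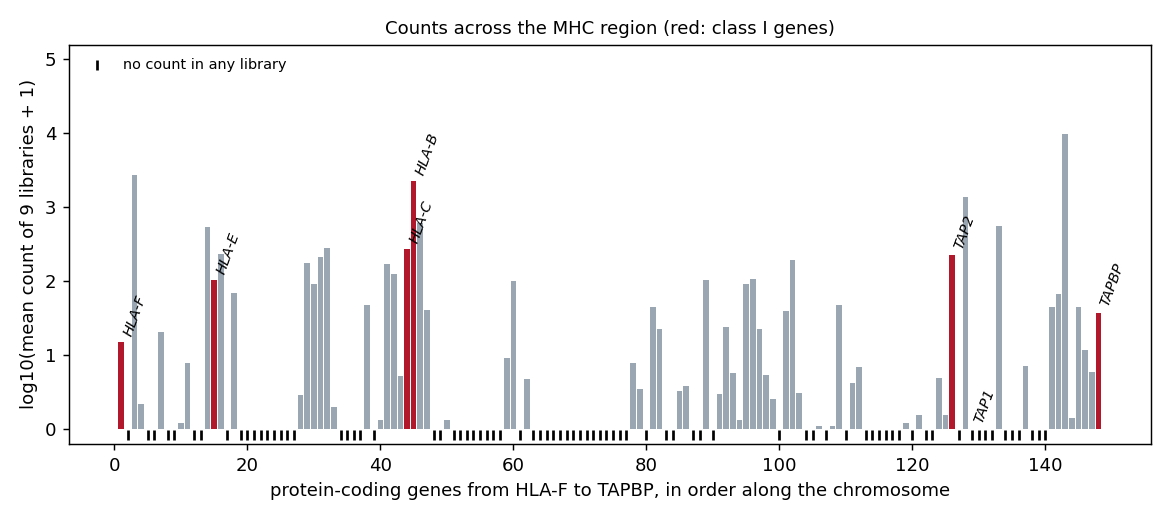
Mean count over the 9 libraries, as log10(mean + 1), of the 148 protein-coding genes from HLA-F to TAPBP in chromosomal order, with class I genes in red and black ticks for genes without a count. Genes with no count (79 of 148) lie between genes that were counted, and TAP1 is one of them.

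TAP1, a subunit of the peptide transporter, had 0 counts in every library. A count of 0 allows up to 3 counts per library, which is 0.181 to 0.245 CPM. In the deposited table the TAP1 locus (32845209 to 32853978) lies wholly inside the locus given for PSMB9 (32844136 to 32859851), an immunoproteasome subunit, which had counts. PSMB8, the neighboring subunit, was at 0 too. Whether reads of TAP1 were counted elsewhere was not tested, and no statement on its expression is made.

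Among the heavy chains, HLA-B (chromosome 6, 31269491 to 31357188) encodes a classical molecule that presents peptides to CD8 T cells. It had 185, 192 and 186 CPM with shRPL6-1 and 228, 136 and 204 CPM with shRPL6-2, against 130, 66.3 and 69.8 CPM in shCont. Every hairpin library lay above every shCont library, the closest being 136 CPM in shRPL6-2 replicate 2 and 130 CPM in shCont replicate 1. Means were 188 ± 3.98 CPM with shRPL6-1, 189 ± 47.7 with shRPL6-2 and 88.7 ± 35.8 in shCont (SD, n = 3 each). The log2 fold change was 1.08 with shRPL6-1 (SE 0.27, edgeR adjusted p = 0.0371) and 1.10 with shRPL6-2 (SE 0.27, edgeR adjusted p = 0.0160). The hairpins differed by 0.01 on the log2 scale (SE 0.27, edgeR adjusted p = 0.989).

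**Figure D2:**
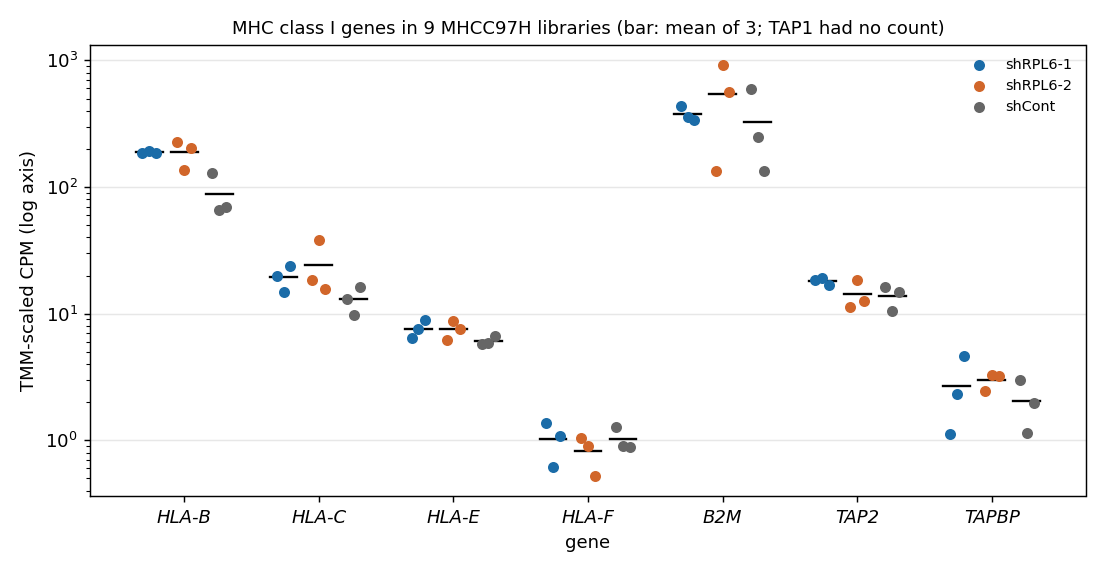
Level of each class I gene (TMM-scaled CPM, log axis) in the 3 libraries of shRPL6-1, shRPL6-2 and shCont, with the group mean as a bar. HLA-B is the gene whose 6 hairpin libraries (136 to 228 CPM) lie above all 3 shCont libraries (66.3 to 130 CPM), and B2M is the most scattered.

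The HLA-B locus as deposited spans 87698 bases, against 3382 for that of HLA-C (31268749 to 31272130). It overlaps the HLA-C locus on the same strand, so reads could be shared between both. From which part of this span the HLA-B counts come was not tested. HLA-C, the classical chain that also serves natural killer receptors, had 20.0, 14.9 and 23.7 CPM with shRPL6-1 and 18.4, 38.4 and 15.7 CPM with shRPL6-2, against 13.1, 9.78 and 16.2 CPM in shCont. The groups overlapped with each hairpin, and the highest value was in shRPL6-2 replicate 2, the library with the lowest HLA-B among the hairpin libraries. The log2 fold change was 0.59 with shRPL6-1 (SE 0.34, edgeR adjusted p = 0.272) and 0.89 with shRPL6-2 (SE 0.34, edgeR adjusted p = 0.0710). With HLA-B and HLA-C counts summed, an alternative added after seeing the data, the log2 fold change was 1.03 with shRPL6-1 (edgeR adjusted p = 0.0281) and 1.07 with shRPL6-2 (edgeR adjusted p = 0.0103). HLA genes differ between people in sequence, and reads of alleles far from the reference can fail to align.

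HLA-E presents signal peptides of other class I chains to natural killer cells. Its libraries held 6.38, 7.50 and 8.83 CPM with shRPL6-1 and 6.20, 8.82 and 7.50 CPM with shRPL6-2, against 5.73, 5.91 and 6.61 CPM in shCont. They overlapped in each comparison, since shCont replicate 3 reached 6.61 CPM. The log2 differences were 0.31 with shRPL6-1 (edgeR adjusted p = 0.351) and 0.30 with shRPL6-2 (edgeR adjusted p = 0.311). HLA-F, a nonclassical chain, stayed between 0.525 and 1.38 CPM in all libraries, on 7 to 22 counts each, and its log2 differences were 0.02 with shRPL6-1 and −0.30 with shRPL6-2 (SE 0.40 and 0.41). A difference in HLA-F was not detectable at this depth.

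The light chain B2M (chromosome 15, 44711487 to 44718877) had 436, 360 and 341 CPM with shRPL6-1 and 134, 917 and 565 CPM with shRPL6-2, against 592, 250 and 133 CPM in shCont. Groups overlapped fully, and the highest library of shRPL6-2 was 6.84 times its lowest, against 1.28 times with shRPL6-1 and 4.46 times in shCont. The log2 fold change was 0.22 with shRPL6-1 (SE 0.61, edgeR adjusted p = 0.836) and 0.73 with shRPL6-2 (SE 0.61, edgeR adjusted p = 0.385). The SD within groups was 1.05 on the log2 scale, above that of 99.8% of 960 genes within 1 log2 unit of its level, whose median was 0.231. HLA-B, at 0.385, stood at the 87.6th percentile of 2563 genes of its level, and HLA-E, at 0.205, at the 16.6th of 3335. A 2-fold change of B2M would lie within 2 standard errors.

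**Figure D3:**
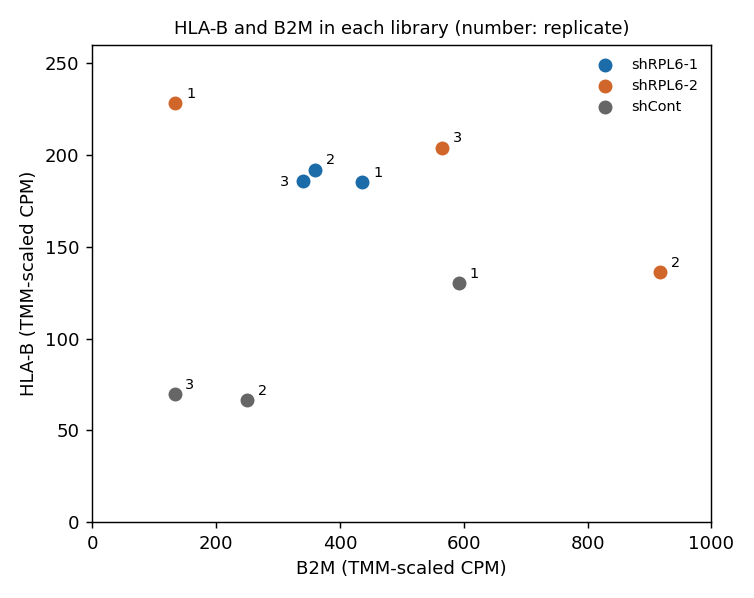
HLA-B against B2M (both TMM-scaled CPM) in the 9 libraries, labelled by replicate number, for shRPL6-1, shRPL6-2 and shCont. HLA-B separates hairpin from shCont libraries on the vertical axis, whereas B2M runs between 133 and 917 CPM with no separation.

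The 4 heavy chains together summed to 213, 215 and 220 CPM with shRPL6-1 and to 254, 184 and 228 CPM with shRPL6-2, against 150, 82.9 and 93.5 CPM in shCont. The hairpin libraries lay above shCont, and HLA-B made up 87.0% of the sum with shRPL6-1 and 85.4% with shRPL6-2, so the sum is little more than HLA-B. The log2 ratio of means was 0.99 with shRPL6-1 and 1.03 with shRPL6-2. An exact two-sided permutation test on the difference of mean log2 sums gave p = 0.1 for each hairpin, the smallest possible with 3 against 3. Divided by B2M, the sum gave 0.488, 0.598 and 0.645 with shRPL6-1 and 1.89, 0.201 and 0.403 with shRPL6-2, against 0.253, 0.332 and 0.703 in shCont. These ratios overlapped (exact permutation p = 0.4 with shRPL6-1 and 0.8 with shRPL6-2).

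TAP2, the partner of TAP1 in the transporter, had 18.6, 19.1 and 16.8 CPM with shRPL6-1 and 11.3, 18.6 and 12.7 CPM with shRPL6-2, against 16.1, 10.5 and 14.9 CPM in shCont. The shRPL6-1 libraries were all above shCont, by a small margin, and those of shRPL6-2 overlapped it. The log2 fold change was 0.39 with shRPL6-1 (SE 0.23, edgeR adjusted p = 0.287) and 0.04 with shRPL6-2 (SE 0.23, edgeR adjusted p = 0.913). TAPBP, which encodes tapasin, had 1.13, 2.32 and 4.62 CPM with shRPL6-1 and 2.44, 3.27 and 3.22 CPM with shRPL6-2, against 3.00, 1.15 and 1.96 CPM in shCont. Its groups overlapped, with log2 fold changes of 0.40 (SE 0.48, edgeR adjusted p = 0.607) for shRPL6-1 and 0.55 (SE 0.48, edgeR adjusted p = 0.409) for shRPL6-2.

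In all, 1 of the 7 class I genes tested was higher and 0 lower with shRPL6-1, where 4.44% of 16146 genes were higher and 4.07% lower. With shRPL6-2 the same 1 gene was higher and 0 lower, where 13.3% of all genes were higher and 14.6% lower. HLA-B was thus the 1 gene higher with both hairpins (3.68% of all genes tested were higher and 3.41% lower with both) and the 1 gene with every hairpin library above every shCont library, as 11.2% of all genes were. DESeq2 called HLA-B with both hairpins and HLA-C with shRPL6-2 (log2 0.88, adjusted p = 0.0381), and HLA-C passed by edgeR too once shCont replicate 3 (1.08, adjusted p = 0.0423) or shRPL6-2 replicate 3 (1.13, adjusted p = 0.0333) was left out. Both hairpins were set against the same shCont libraries. None of the 7 differed between shRPL6-2 and shRPL6-1 by edgeR (0.384% of all genes did), 0 had an unadjusted p under 0.05 there, and DESeq2 called 0. The median log2 fold change of the 7 was 0.39 with shRPL6-1 and 0.55 with shRPL6-2, beside −0.01 and −0.03 over all genes.

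**Figure D4:**
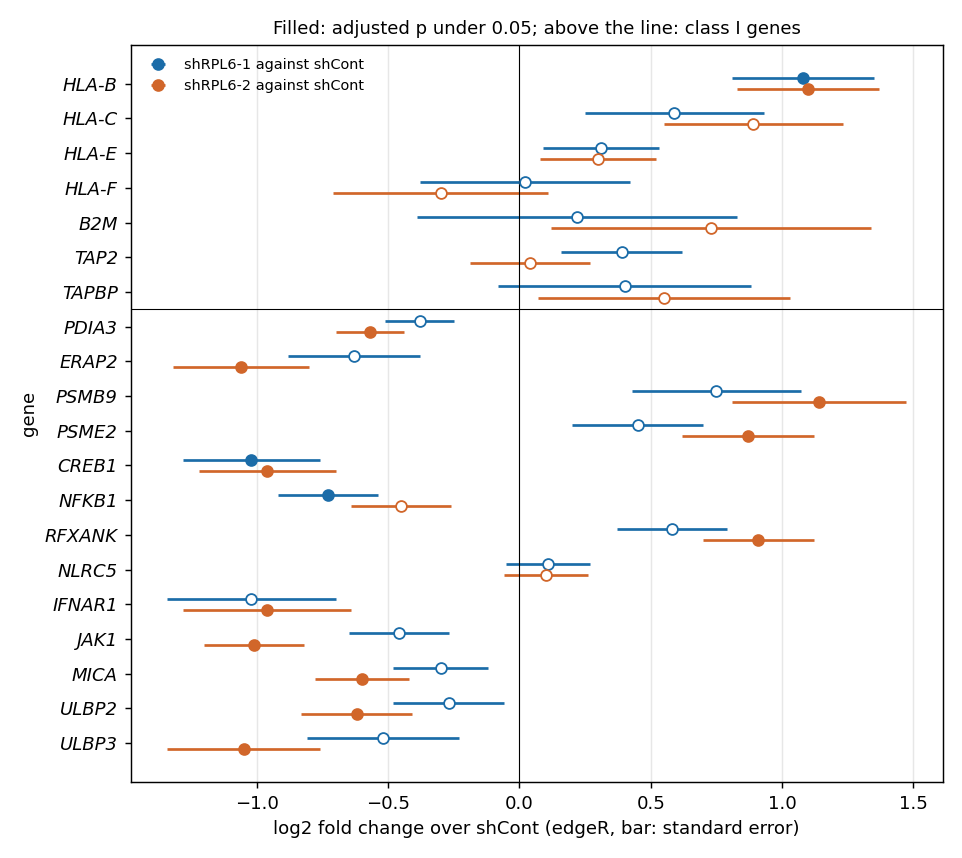
Log2 fold change over shCont (dot) and its standard error (bar) for 7 class I genes, above the line, and for 13 genes of related lists, below it, with shRPL6-1 and shRPL6-2. Filled dots have an edgeR adjusted p under 0.05, which among class I genes holds for HLA-B at 1.08 and 1.10.

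The HLA-B call was unequal in strength between hairpins. With shRPL6-1 it was lost under 11 of 18 alternatives (adjusted p of 0.00323 to 0.157 over all 18), and with shRPL6-2 under 4 of 18 (0.00129 to 0.123 over all 18). With a GC offset per library the log2 fold change was 0.87 with shRPL6-1 (edgeR adjusted p = 0.107) and 0.75 with shRPL6-2 (edgeR adjusted p = 0.123). The longest HLA-B transcript has 59.0% GC and that of B2M 40.6%, and the same offset gave B2M 0.53 with shRPL6-1 and 1.29 with shRPL6-2 (edgeR adjusted p = 0.589 and 0.153). Without shCont replicate 2, HLA-B had an edgeR adjusted p of 0.157 with shRPL6-1 and 0.0749 with shRPL6-2. Without shRPL6-2 replicate 1 the values were 0.0546 and 0.0577, and without shRPL6-1 replicate 1, 2 or 3 the value for shRPL6-1 was 0.111, 0.0945 and 0.0963. Leaving out shCont replicate 3 kept both calls (edgeR adjusted p = 0.0345 with shRPL6-1 and 0.0227 with shRPL6-2). The shCont libraries that remained had the lowest rho with GC of all 9 libraries (−0.533 and −0.515), so this omission cannot tell group from GC trend. DESeq2 gave adjusted p of 0.00323 with shRPL6-1 and 0.00129 with shRPL6-2. The direction was up in all of these.

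**Figure D5:**
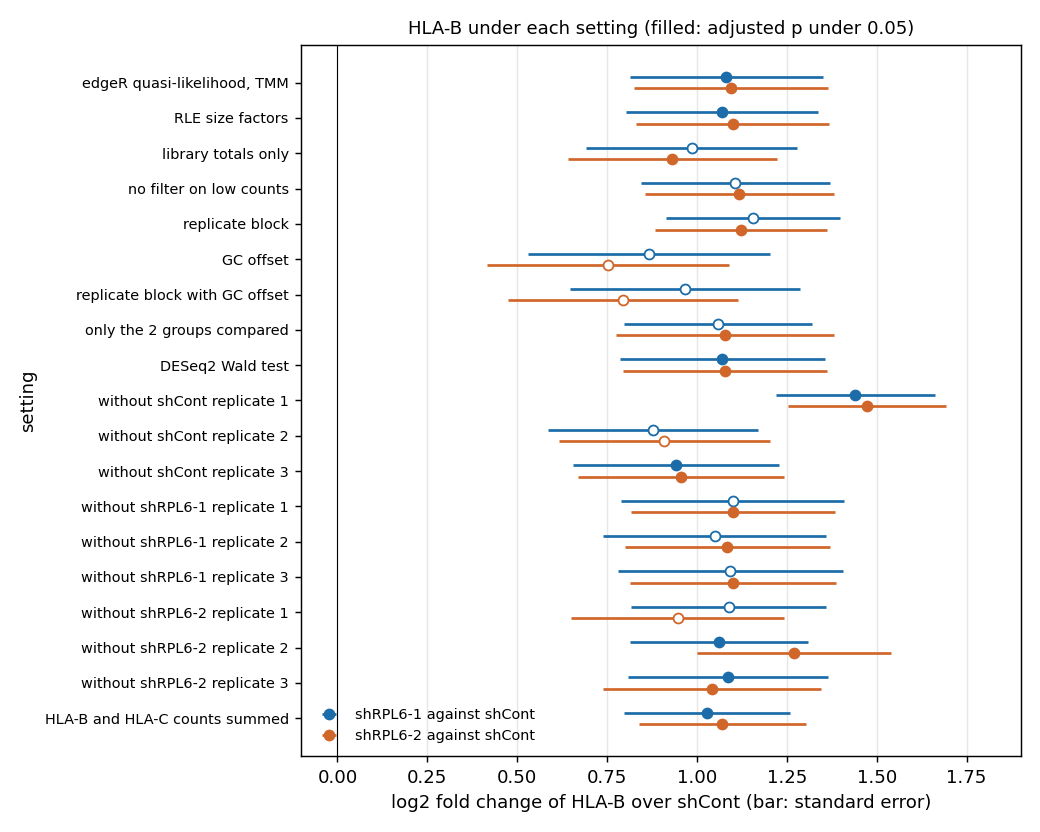
Log2 fold change of HLA-B over shCont (dot) and its standard error (bar) for shRPL6-1 and shRPL6-2, as reported (top) and under 18 alternatives. Filled dots have an adjusted p under 0.05, and all values lie between 0.75 and 1.47.

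Levels between genes were compared per length, as CPM per kilobase of the longest GENCODE 29 transcript. B2M stood at 158, 224 and 135 CPM per kilobase with shRPL6-1, shRPL6-2 and in shCont, followed by HLA-B at 121, 122 and 57.3, and HLA-C at 10.4, 12.9 and 6.93. TAP2 (3.19, 2.50 and 2.43) and HLA-E (2.91, 2.88 and 2.34) followed and did not differ beyond their spread, and TAPBP (0.715, 0.792 and 0.541) and HLA-F (0.627, 0.503 and 0.621) were lowest. In the authors' FPKM, which rest on other lengths, B2M had 29.7 ± 3.69, 39.4 ± 27.5 and 27.6 ± 21.1 and HLA-B 29.0 ± 0.61, 28.0 ± 8.01 and 14.6 ± 6.47 (SD, n = 3 each), in the same group order. The mean of B2M was above that of HLA-B in each group on both scales, by an amount that depends on the length used.

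The genes whose log2 CPM over the 9 libraries ran most like HLA-B, among 9660 protein-coding genes, were LYRM7 (Pearson r = 0.962), CRLS1 (0.956), CENPBD1 (0.928), ZNF761 (0.924) and BBS1 (0.922). By rank correlation 1 of these 5, BBS1, was again among the first 5. The other class I genes ran less like HLA-B, with r of 0.435 for TAPBP, 0.382 for HLA-C, 0.342 for HLA-E, 0.279 for TAP2, 0.264 for B2M and −0.0715 for HLA-F. TAP1 could not be placed, having no count, and B2M was taken in its stead after the data were seen. Its nearest was SPIN3 (0.904), followed by ADNP (0.815), AC010323.1 (0.810), SLC35E1 (0.807) and RBMX2 (0.771). The 9 points share the group difference and the GC trend of the libraries, so these values only describe likeness.

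The proteasome parts that trim class I peptides were followed next. Of 6 genes, 5 were tested. With shRPL6-1, where 4.44% of all genes were higher, edgeR called 0 (1 at an unadjusted p under 0.05, 0 by DESeq2). With shRPL6-2, where 13.3% of all genes were higher, 2 were higher. PSMB9, an immunoproteasome subunit, averaged 99.3 CPM with shRPL6-1, 130 with shRPL6-2 and 59.0 in shCont (log2 fold change 0.75, edgeR adjusted p = 0.154, and 1.14, edgeR adjusted p = 0.0273). PSME2, a subunit of the interferon-inducible activator, averaged 130, 173 and 95.2 CPM in the same order (0.45, edgeR adjusted p = 0.251, and 0.87, edgeR adjusted p = 0.0269). PSME1 and PSMB10 had log2 differences of 0.49 and 0.52 with shRPL6-2 and did not pass. The list's median was 0.19 with shRPL6-1 and 0.52 with shRPL6-2. Neither gene passed when replicate 1 or 2 of shRPL6-2 or of shCont was left out, and without shCont replicate 3 PSMB9 passed with both hairpins (1.17, edgeR adjusted p = 0.0154, with shRPL6-1). Since the PSMB9 locus encloses TAP1, PSMB9 counts are uncertain.

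Of 6 genes for folding and trimming in the endoplasmic reticulum, edgeR called 0 with shRPL6-1 (3 at an unadjusted p under 0.05, and by DESeq2 1, PDIA3). With shRPL6-2, 2 were lower. Over all genes, 4.07% were lower with shRPL6-1 and 14.6% with shRPL6-2. PDIA3, the oxidoreductase ERp57 bound to tapasin, averaged 367 CPM with shRPL6-1, 321 with shRPL6-2 and 477 in shCont (log2 −0.38, edgeR adjusted p = 0.0942, and −0.57, edgeR adjusted p = 0.0131). ERAP2, an aminopeptidase that trims peptides, averaged 2.86, 2.13 and 4.44 CPM in that order (−0.63, edgeR adjusted p = 0.132, and −1.06, edgeR adjusted p = 0.0165). ERAP1 and the chaperone CANX had −0.45 and −0.54 with shRPL6-2 and did not pass. The list's median was −0.33 with shRPL6-1 and −0.49 with shRPL6-2. The transcripts of PDIA3 and ERAP2 have 43.8% and 40.5% GC, and with the GC offset the shRPL6-2 values were −0.31 (edgeR adjusted p = 0.0517) and −0.62 (edgeR adjusted p = 0.0719). The ERAP2 call was lost too when replicate 1 or 2 of shRPL6-2 or of shCont was left out.

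Of 12 regulators of class I transcription, all tested, 0 were higher and 2 lower with shRPL6-1, where 4.44% of all genes were higher and 4.07% lower. With shRPL6-2, where 13.3% of all genes were higher and 14.6% lower, 1 was higher and 1 lower. CREB1, which binds the X2 box, was lower with both, as 3.41% of all genes tested were. It averaged 6.34 CPM with shRPL6-1, 6.61 with shRPL6-2 and 12.9 in shCont (log2 −1.02, edgeR adjusted p = 0.0418, and −0.96, edgeR adjusted p = 0.0241). Its transcript has 36.0% GC, and with the GC offset the differences were −0.64 (edgeR adjusted p = 0.0303) and −0.35 (edgeR adjusted p = 0.147). Both CREB1 calls were lost without shCont replicate 1 or 2, the shRPL6-1 call without any one shRPL6-1 library or shRPL6-2 replicate 1, and the shRPL6-2 call without shRPL6-2 replicate 2. The other called genes, named after their values were seen, were NFKB1, an NF-kB subunit, lower with shRPL6-1 (−0.73, edgeR adjusted p = 0.0404), and RFXANK, part of the RFX complex on the X box, higher with shRPL6-2 (0.91, edgeR adjusted p = 0.0120). NFKB1 had −0.45 (edgeR adjusted p = 0.0912) with shRPL6-2, and RFXANK had 0.58 (edgeR adjusted p = 0.0968) with shRPL6-1. The NFKB1 call was lost without shCont replicate 1 or 2, any one shRPL6-1 library or shRPL6-2 replicate 1, and the RFXANK call without shCont replicate 1 or 2. NLRC5, also named for its role, averaged 105, 105 and 97.9 CPM with log2 differences of 0.11 and 0.10 (edgeR adjusted p = 0.681 and 0.646), which turned negative with a GC offset. The list's median was 0.15 with shRPL6-1 and 0.13 with shRPL6-2.

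Of 7 interferon receptors and kinases, edgeR called 0 with shRPL6-1 (2 at an unadjusted p under 0.05, and by DESeq2 1, IFNAR1). With shRPL6-2, 2 were lower. Over all genes, 4.07% were lower with shRPL6-1 and 14.6% with shRPL6-2. JAK1, a kinase of both interferon receptors, averaged 173 CPM with shRPL6-1, 118 with shRPL6-2 and 237 in shCont (log2 −0.46, edgeR adjusted p = 0.141, and −1.01, edgeR adjusted p = 0.00683), and the shRPL6-2 call held under all 17 alternatives. IFNAR1, a chain of the type I interferon receptor, averaged 24.0, 24.9 and 48.6 CPM in that order (−1.02, edgeR adjusted p = 0.0717, and −0.96, edgeR adjusted p = 0.0460). That call was lost under 10 of 17 alternatives, among them the omission of shCont replicate 1 or 2, shRPL6-1 replicate 1 and shRPL6-2 replicate 1 or 2, and without shCont replicate 3 IFNAR1 was lower with both hairpins (−1.25, edgeR adjusted p = 0.0145, with shRPL6-1). JAK2 and TYK2 had −0.37 and 0.27 with shRPL6-2 and did not pass. The list's median was −0.30 with shRPL6-1 and −0.37 with shRPL6-2.

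Of 10 class I-like molecules and ligands of the natural killer receptor NKG2D, 8 were tested. With shRPL6-1, where 4.07% of all genes were lower, edgeR called 0 (1 at an unadjusted p under 0.05, 0 by DESeq2). With shRPL6-2, where 14.6% of all genes were lower, 3 NKG2D ligands were lower. These were MICA (log2 −0.60, edgeR adjusted p = 0.0301), ULBP2 (−0.62, edgeR adjusted p = 0.0499) and ULBP3 (−1.05, edgeR adjusted p = 0.0254). With shRPL6-1 they had −0.30, −0.27 and −0.52 (edgeR adjusted p = 0.271, 0.414 and 0.250), and ULBP1 had −1.15 with shRPL6-1 and −0.77 with shRPL6-2 on under 2 CPM. The list's median was −0.37 with shRPL6-1 and −0.53 with shRPL6-2. Omitting 1 library ended the MICA call for shCont replicate 1 or 2, shRPL6-1 replicate 3 and shRPL6-2 replicate 1 or 3, and the ULBP3 call for shCont replicate 1 or 2 and shRPL6-2 replicate 1 or 2. The ULBP2 call was lost under 14 of 17 alternatives, including every single omission except that of shRPL6-1 replicate 2. Of 10 genes of MHC class II, which professional antigen-presenting cells carry, 6 had no count and 1, the transactivator CIITA, was tested (−0.25 with shRPL6-1, edgeR adjusted p = 0.690, and −0.60 with shRPL6-2, edgeR adjusted p = 0.257). Most of these also lie in the MHC stretch.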

How the data were processed

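The authors made 9 stranded, paired-end poly-A libraries from MHCC97H cells, and groups come from the sample titles. The submitters' processing notes name CASAVA 1.8, HISAT2, StringTie and edgeR with build GRCh38. The sources used here do not state the annotation, the counting program or its use of strand. The deposited table holds whole-number counts per gene and FPKM, computed by the authors on gene lengths that are not stated.

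The test was that of edgeR 4.0.16 on counts, run in R 4.3.3 (filterByExpr, TMM, quasi-likelihood test, all 9 libraries with 1 term per group). That left 16146 of 60683 genes, over which p-values were adjusted by the Benjamini-Hochberg method (threshold 0.05, two-sided). The code was tested on simulated data. Sums and ratios were tested by exact permutation, on the difference of mean log2 values. Floors cover counting error only, whereas standard errors are those of the fit and include the spread between libraries. Alternatives were RLE and total scaling, no filter, DESeq2 1.42.0, single comparisons, leaving out each library, a replicate block, a GC offset (a spline on transcript GC, available for 99.1% of genes tested) and FPKM.

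All 8 class I genes, RPL6, and from each other list the genes called with both hairpins are named (where there was none, the 4 lowest in adjusted p), with the 5 genes most like HLA-B. ALB, PTPRC and CD3E are named in addition as defining markers, and COL1A2, DCN and PECAM1 as markers under 1 CPM, after their values were seen. The members and lists were chosen with earlier results of these data known.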

Additional observations from a re-analysis of the deposited data

How the results depend on the processing

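Counts of genes called over the whole table moved with the processing, and the cause was not tested. For shRPL6-1 against shCont the 1374 genes became 623 with no filter on low counts, 32 with a replicate block, 2599 with a GC offset, 839 with only the 2 groups compared and 2526 with DESeq2, and 99 to 4783 when 1 library was left out. For shRPL6-2 against shCont the 4499 genes became 2099 with a replicate block, 2834 with a replicate block and GC offset and 2825 with only the 2 groups, and 1378 to 7201 when 1 library was left out. For shRPL6-2 against shRPL6-1 the 62 genes became 39 with no filter, 5 with a replicate block, 185 with a GC offset, 28 with both and 326 with DESeq2, and 8 to 194 when 1 library was left out. The highest of these came without shCont replicate 3 in all 3 comparisons, and the lowest for each hairpin against shCont without shCont replicate 2. Among the class I genes and the related lists other than markers, 2 (HLA-B and CREB1) were called the same way with both hairpins. Over all genes tested, 3.68% were higher and 3.41% lower with both. The number in the lists became 0 with no filter, with a replicate block, with the block and GC offset and with only the 2 groups. It was 4 with DESeq2 and 0 to 11 when 1 library was left out.

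Of the class I genes not called, HLA-C passed with shRPL6-2 under 3 of 17 alternatives, namely DESeq2, without shCont replicate 3 and without shRPL6-2 replicate 3. Directions turned for values that were not called. HLA-B between the hairpins became −0.05 with library totals, −0.03 with a replicate block, −0.11 with a GC offset, −0.17 with both, and ran from −0.14 to 0.21 when 1 library was left out. HLA-F with shRPL6-1 became −0.07 with library totals, −0.17 with a GC offset and −0.18 with block and offset, and ran from −0.25 to 0.27 over omissions. B2M with shRPL6-1 ran from −0.15 to 0.95 over omissions, TAPBP with shRPL6-1 from −0.23 to 0.78 and TAP2 with shRPL6-2 from −0.21 to 0.19, with −0.13 under library totals. NLRC5 became −0.05 with shRPL6-1 under the offset and under block and offset, and with shRPL6-2 −0.05 under library totals, −0.19 under the offset and −0.20 under both. Scaling by library totals moved the median of all genes to −0.19 with shRPL6-2. Same-numbered libraries did not deviate together (r from −0.466 to 0.252 over 9 pairs, 1 of them over 0.1). The GC trend of the libraries enters these values too, so they cannot decide whether the numbers pair the samples. The heavy chain sum in FPKM gave 0.88 with shRPL6-1 and 0.85 with shRPL6-2. HLA-F had 7 to 22 counts per library and TAPBP 18 to 68, which limits their precision.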
